A study of Mus musculus with 16 samples.

Results

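Smo, Sufu, Gli2 and Gli3 are the genes that carry a hedgehog signal from the cell surface into the nucleus, and their RNA was followed here through all 8 sample groups of an array study of SmoM2-driven skin tumours. They were taken by name, as 4 of the 18194 genes that the array annotation names alone, and all 11 probe sets assigned to 1 of the 4 symbols were read. The cells came from mouse tail epidermis and were sorted by flow cytometry as basal cells of the interfollicular epidermis (IFE), the skin between hair follicles, or as cells of the hair follicle bulge and outer root sheath.

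All mice were of mixed strain background, and their ages are not given. The genotype behind every IFE group was K14CREER/Rosa-SmoM2-YFP, where the keratin 14 promoter drives a tamoxifen-dependent Cre that switches on SmoM2 with a YFP tag. SmoM2 is a constitutively active Smoothened. The IFE groups were SmoM2 cells at 4 weeks from mice that also carried floxed β-catenin alleles, here called β-catenin loss (n = 2), SmoM2 cells taken after tamoxifen at 3 days (1 array), 1 week (3 arrays), 4 weeks (3 arrays) and 10 weeks (2 arrays), and control cells of mice with the SmoM2 genotype that were given no tamoxifen (n = 3). No group lost β-catenin without SmoM2. The signal of Ctnnb1, the β-catenin gene, was 12.76 and 12.93 with β-catenin loss, below SmoM2 alone at 4 weeks at 13.21 to 13.65 and within or at the range of control IFE at 12.76 to 13.04. Whether its probe set lies in the floxed part of the gene is not given in the sources used here, so this level does not check the label. The follicle groups came from K19CREERT2/Rosa-SmoM2-YFP mice, where keratin 19 drives the Cre, with 1 array of SmoM2 cells at 4 weeks and 1 control array. The source label of that control names SmoM2-positive cells and its treatment is given as none, and its title was followed, which calls it the control. Controls thus differed from SmoM2 cells in tamoxifen, in time since it and in sorting as well as in SmoM2, and these cannot be told apart. The mean signal of 3 Y-linked genes, a measure of sex, was also uneven. It was 3.41, 8.18 and 3.43 in control IFE, 7.55 at 3 days and 8.26, 3.34 and 7.38 at 1 week. At 4 weeks it was 8.41, 7.58 and 6.02, and at 10 weeks 8.10 and 8.15. With β-catenin loss it was 3.39 and 6.91, in the bulge control 6.35 and in the SmoM2 bulge 3.48. Whether replicates were separate mice or pools is not given, so p-values measure only the spread between these samples, which may be technical.

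When no hedgehog ligand is bound, the receptor Patched keeps Smoothened inactive, and the cytoplasmic protein Sufu holds the Gli factors back, so that Gli3 and part of Gli2 are cleaved into transcriptional repressors. Active Smoothened gathers in the primary cilium and frees the Gli factors from Sufu, and full-length Gli2, the main activator in mouse skin, then switches on genes such as Gli1 and Ptch1, which also serve as the usual readout of the pathway. Most of this control acts on the proteins, whereas the arrays measured RNA. In the skin the pathway drives follicle growth, and its lasting activity in keratinocytes gives basal cell carcinoma.

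The promoters of Gli2 and Smo, which rose together at 4 weeks, are shown as the 250 bases upstream of each transcription start in RefSeq on GRCm38.p6, 5′ to 3′ on the strand of the gene. Capitals mark the letters CCACCC, the core of the sequence that Gli proteins bind, or its complement GGGTGG. The Gli2 window lies at chr1:119053620-119053869 on the minus strand, inside the span of longer Gli2 gene models, and the Smo window at chr6:29735247-29735496 on the plus strand.
Gli2: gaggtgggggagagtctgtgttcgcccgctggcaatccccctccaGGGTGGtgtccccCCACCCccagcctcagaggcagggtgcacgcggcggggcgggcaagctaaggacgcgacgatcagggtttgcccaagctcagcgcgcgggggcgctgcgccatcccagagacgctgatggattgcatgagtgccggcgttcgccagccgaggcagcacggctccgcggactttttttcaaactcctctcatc
Smo: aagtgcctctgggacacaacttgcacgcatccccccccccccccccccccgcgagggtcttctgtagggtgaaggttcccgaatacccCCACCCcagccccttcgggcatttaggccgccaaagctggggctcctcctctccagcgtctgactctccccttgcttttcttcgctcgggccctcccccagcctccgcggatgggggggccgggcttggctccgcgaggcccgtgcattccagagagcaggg
On both strands, the core occurred 2 times in the Gli2 window and 1 time each in the Smo and Gli3 windows, and not in the Sufu window. It occurred in 28.1% of the 32851 promoter windows of the same length. The longer motif GACCACCCA, which contains the core, was in none of the 4 windows, exactly or with 1 mismatch, and in 0.225% and 5.79% of all windows. These counts describe letters only. The GC content was 67.2% for Gli2, 68.4% for Smo, 72.8% for Gli3 and 54.0% for Sufu, against a median of 52.4% over all windows.

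All values are log2 signals of the deposited table, so a difference of 1 is a 2-fold difference in signal. Array medians lay between 5.38 and 5.53. For each gene the probe set with the highest mean was used, and the gene was tested if this signal exceeded the 40th percentile of 2 or more of the 16 arrays. All 4 transducers passed, by 9 of their 11 probe sets. Differences were tested with limma over the 14 IFE arrays, adjusted over the 14286 genes tested, and a gene was called at an adjusted p under 0.05. Levels of different probe sets were not set against each other. The basal markers Krt14, Krt5, Itga6, Itgb4, Col17a1, Trp63 and Dst were all above that percentile in every array. The mean log2 signal of 8 dermal fibroblast markers was 5.26 to 5.90 with β-catenin loss, 6.53 to 7.06 at 1 week, 6.59 to 6.97 at 4 weeks and 6.34 to 6.46 at 10 weeks, against 5.92 to 6.43 in control IFE, and their part in the results was not tested. The mean of 5 sebaceous gland markers was 9.64 to 10.33 with β-catenin loss and 7.39 to 8.89 with SmoM2 alone at 4 weeks, against 8.57 to 9.29 in control IFE. That of 8 melanocyte markers was 5.54 to 5.55 with β-catenin loss and 6.29 to 7.61 with SmoM2 alone at 4 weeks, against 7.09 to 9.14 in control IFE. For 6 suprabasal markers it was 8.32, 8.20 and 10.04 at 4 weeks, against 9.56 to 9.84 in control IFE. Their part was not tested either. In sorted bulk samples, a different number of cells of a type and a different amount of RNA per cell cannot be told apart.

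**Figure D1:**
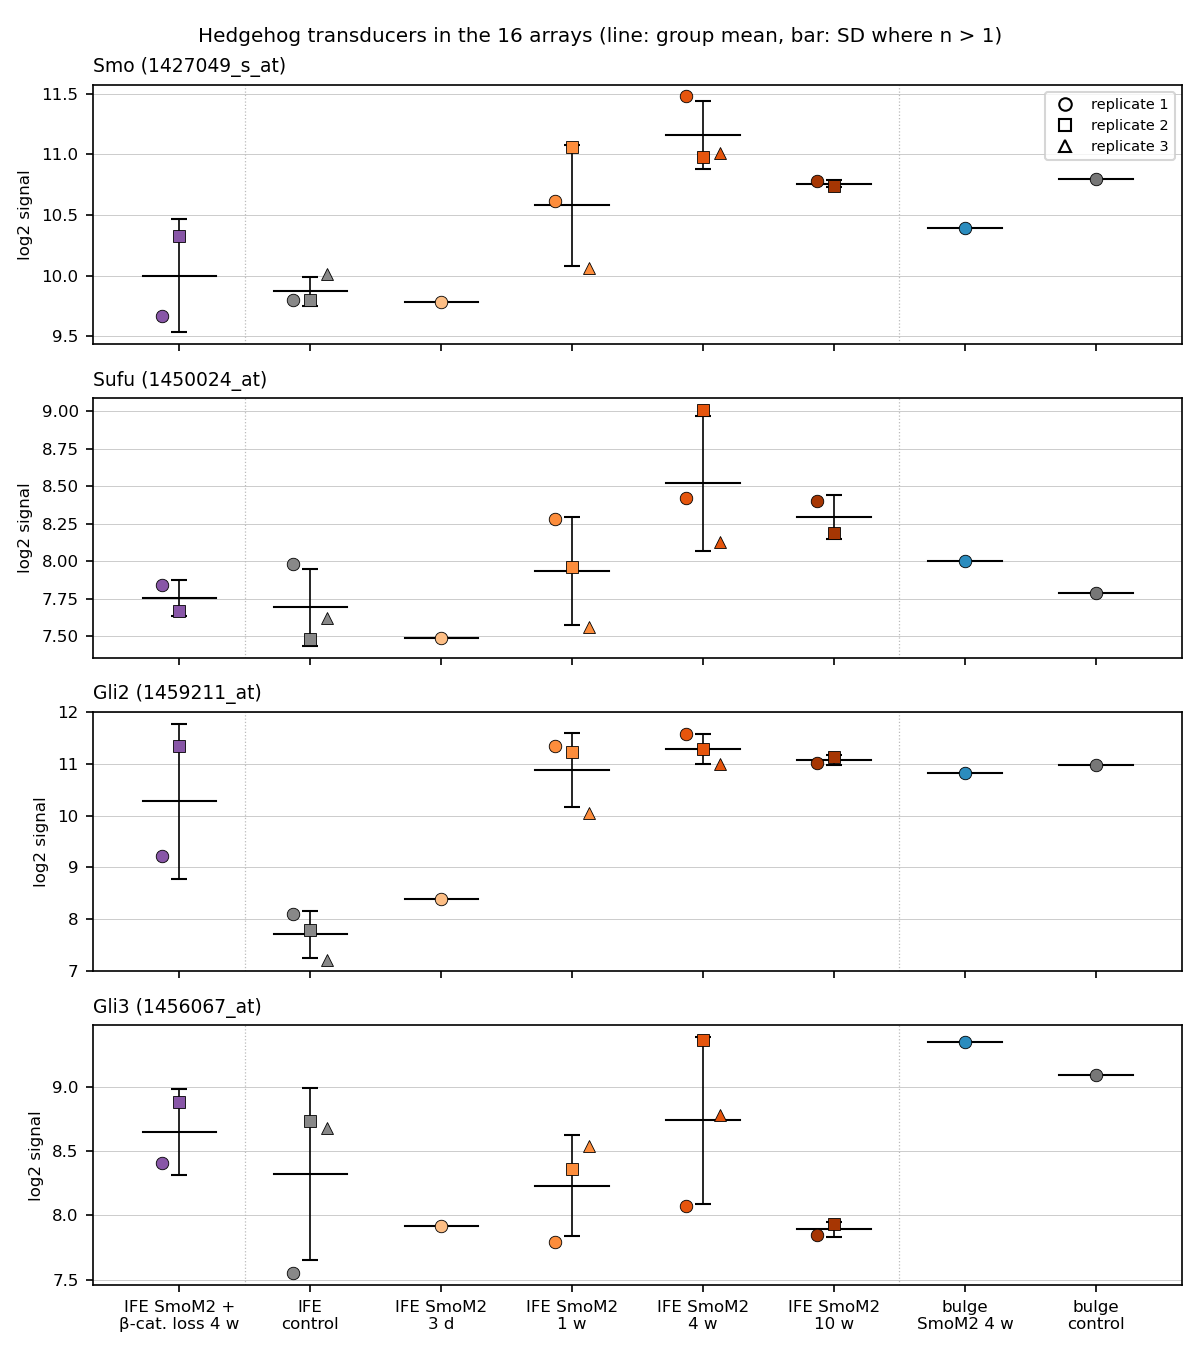
Log2 signal of Smo, Sufu, Gli2 and Gli3 (vertical axes, 1 panel per gene, probe set in the panel title) in the 8 sample groups, 1 symbol per array, with the group mean as a line and the SD as a bar where a group has over 1 array. Gli2 lay at 7.22 to 8.10 in the 3 control IFE arrays and at 10.06 or above in all 8 IFE arrays with SmoM2 alone from 1 week on, while Gli3 overlapped between those groups.

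Gli2 signal was 11.9-fold higher at 4 weeks than in control IFE, and Smo signal 2.44-fold higher. Both were called, 2 of the 4 transducers, where 3.24% of all genes tested were called at 4 weeks and 2.44% were called as higher. Sufu lay higher without passing the test, and the Gli3 arrays of both groups overlapped. At 10 weeks Gli2 alone of the 4 was called, with 0.7% of all genes called and 0.567% called as higher. In a fit blocked by replicate number, 873 genes were called at 4 weeks instead of 463, and among the transducers again Smo (adjusted p = 0.0228) and Gli2 (adjusted p = 0.00588). In the remaining comparisons none of the 4 was called, where the called share of all genes was 0% at 3 days, 0% at 1 week, 0% for 4 weeks over 1 week, 0% for 10 weeks over 4 weeks, 0.371% for β-catenin loss over control and 2.23% for β-catenin loss over SmoM2 alone. At an unadjusted p under 0.05, the comparisons without any called gene held 222 genes at 3 days, 677 at 1 week, 688 for 4 weeks over 1 week and 893 for 10 weeks over 4 weeks.

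Smo encodes Smoothened, the membrane protein that passes the signal on once Patched releases it. Its log2 signal was 9.80, 9.80 and 10.01 in control IFE, 9.78 at 3 days, 10.62, 11.06 and 10.06 at 1 week, 11.48, 10.98 and 11.01 at 4 weeks, and 10.78 and 10.74 at 10 weeks. From 1 week on, every SmoM2 array lay above every control array, as for 4.63% of all genes at 1 week, 9.17% at 4 weeks and 16.8% at 10 weeks, but replicate 3 at 1 week did so by only 0.05 over the control array of the same number. At 4 weeks the difference was 1.29 ± 0.27 (SE; 95% interval 0.70 to 1.87; limma adjusted p = 0.028), and arrays of the same replicate number differed by 1.67, 1.18 and 1.01. The difference at 1 week was 0.71 ± 0.27 (adjusted p = 0.799) and at 10 weeks 0.89 ± 0.30 (adjusted p = 0.227), neither past the threshold.

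The call on Smo was lost when single arrays were left out. Without control replicates 1, 2 or 3 the adjusted p was 0.0814, 0.106 and 0.0792, and without replicates 1 or 2 at 4 weeks it was 0.0802 and 0.0512. The other probe set of Smo with signal above the filter, 1427048_at, differed by 0.97 ± 0.49 at 4 weeks (adjusted p = 0.461), with 11.12, 9.0 and 9.76 at 4 weeks against 9.56, 8.64 and 8.79 in control IFE. Its groups overlapped, and over the 16 arrays the probe sets correlated with r = 0.78. Both are annotated to the same source sequence and are not independent. The remaining Smo probe set, 1442215_at, did not pass the filter, with 3.33 to 4.40 in every array except 1 of β-catenin loss, where it was 6.21.

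SmoM2 cells carry a transgene made from Smo. At 3 days the Smo signal was 9.78, just below the lowest control array, as for 19.4% of all genes. With β-catenin loss it was 9.67 and 10.33, on both sides of the controls. From 1 week on with SmoM2 alone it was 10.06 to 11.48, above all controls. Whether any of these probe sets reads the transgene was not tested.

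Sufu encodes the suppressor of fused, which binds Gli proteins and keeps them out of the nucleus. Its log2 signal was 7.98, 7.48 and 7.62 in control IFE, 7.49 at 3 days, 8.28, 7.96 and 7.56 at 1 week, 8.42, 9.01 and 8.13 at 4 weeks, and 8.4 and 8.19 at 10 weeks. All arrays at 4 and 10 weeks lay above all control arrays, as for 9.17% and 16.8% of all genes, and those at 3 days and 1 week did not. The difference was 0.83 ± 0.26 at 4 weeks (95% interval 0.26 to 1.39; limma adjusted p = 0.122) and 0.60 ± 0.29 at 10 weeks (adjusted p = 0.506), so neither was called. Arrays of the same number differed unevenly at 4 weeks, by 0.44, 1.53 and 0.51. A further Sufu probe set, 1431713_at, was near 6 in every group and differed by -0.22 ± 0.24 at 4 weeks (adjusted p = 0.808), with r = 0.17 between both probe sets over the 16 arrays. The last one, 1420848_at, did not pass the filter.

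Gli2 encodes the zinc finger factor that carries most of the activating signal. Its log2 signal was 8.10, 7.80 and 7.22 in control IFE, 8.39 at 3 days, 11.35, 11.24 and 10.06 at 1 week, 11.58, 11.28 and 11.00 at 4 weeks, and 11.01 and 11.14 at 10 weeks. The 3-day array lay just above the highest control, as did 24.6% of all genes. All arrays from 1 week on lay above all controls, as for 4.63% of all genes at 1 week, 9.17% at 4 weeks and 16.8% at 10 weeks. The difference was 0.68 ± 0.69 at 3 days (limma adjusted p = 1), 3.18 ± 0.49 at 1 week (95% interval 2.11 to 4.25; adjusted p = 0.072), 3.58 ± 0.49 at 4 weeks (2.51 to 4.65; adjusted p = 0.00884) and 3.37 ± 0.55 at 10 weeks (2.17 to 4.57; adjusted p = 0.0213). The 3 differences between arrays of the same number were 3.25, 3.43 and 2.84 at 1 week and 3.48, 3.48 and 3.78 at 4 weeks.

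At 1 week Gli2 was not called although its fold was 9.04. Of all genes, 0.035% had a larger difference there, and the lowest adjusted p of any gene was 0.072, the same as that of Gli2. Without replicate 3 at 1 week, the array of lowest Gli2, the difference was 3.59 and its adjusted p was 0.0179. The later calls were also lost when single arrays were left out. Without control replicate 2 the adjusted p was 0.0509 at 4 weeks and 0.0814 at 10 weeks, and without control replicate 3 it was 0.074 at 10 weeks. With 1 of the 2 arrays left out at 10 weeks it was 0.313 or 0.278.

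The other Gli2 probe set, 1446086_s_at, had the same order of groups over time except that 10 weeks stood above 4 weeks, with means of 6.12 in control IFE, 6.95 at 3 days, 8.51 at 1 week, 8.97 at 4 weeks and 9.13 at 10 weeks. In a fit of all 26067 probe sets that passed the filter, its difference from control was 2.85 ± 0.38 at 4 weeks (limma adjusted p = 0.0136) and 3.01 ± 0.43 at 10 weeks (adjusted p = 0.022), and both probe sets of Gli2 were called at both times. They correlated with r = 0.98 over the 16 arrays. The annotation gives both the same source sequence, so their agreement is not independent.

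Gli3 encodes the relative of Gli2 that acts mostly as a repressor. Its log2 signal was 7.55, 8.73 and 8.68 in control IFE, 7.92 at 3 days, 7.79, 8.36 and 8.54 at 1 week, 8.07, 9.36 and 8.78 at 4 weeks, and 7.85 and 7.93 at 10 weeks. In this probe set of highest mean the control arrays alone spanned more than 1 log2 unit. Every IFE group of SmoM2 alone fell inside or overlapped their range. The difference from control was -0.40 ± 0.53 at 3 days (limma adjusted p = 1), -0.09 ± 0.38 at 1 week (adjusted p = 1), 0.42 ± 0.38 at 4 weeks (95% interval -0.41 to 1.24; adjusted p = 0.725) and -0.43 ± 0.42 at 10 weeks (-1.35 to 0.49; adjusted p = 0.855). These intervals leave room for changes of about 1 log2 unit.

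The arrays of Gli3 that were low in the main probe set were those of replicate 1, at 7.55 in control IFE, 7.79 at 1 week and 8.07 at 4 weeks, each the lowest of its group. Probe set 1455154_at did not show this order, with 8.51, 8.19 and 8.35 in control IFE, 8.55, 8.09 and 8.44 at 1 week and 9.01, 8.62 and 8.26 at 4 weeks. The 2 probe sets correlated with r = 0.43. They had the 10-week group in common as the lowest, and for 10 weeks over 4 weeks the difference was -0.85 ± 0.42 in the main probe set (limma adjusted p = 0.794) and -0.76 ± 0.24 in 1455154_at (adjusted p = 0.793), with both groups apart, as for 13.5% of all genes in the lower direction. Probe set 1455154_at also lay below all its control arrays at 3 days, at 7.88, and at 10 weeks, at 7.82 and 7.92. At 3 days 19.4% of all genes lay below all controls, and the share at 10 weeks is not given here. Its difference from control at 10 weeks was -0.48 ± 0.24 (limma adjusted p = 0.603), not called. The remaining probe set, 1450525_at, stayed between 4.62 and 5.17 in all arrays and differed from control by 0.19 ± 0.21 at 10 weeks.

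**Figure D2:**
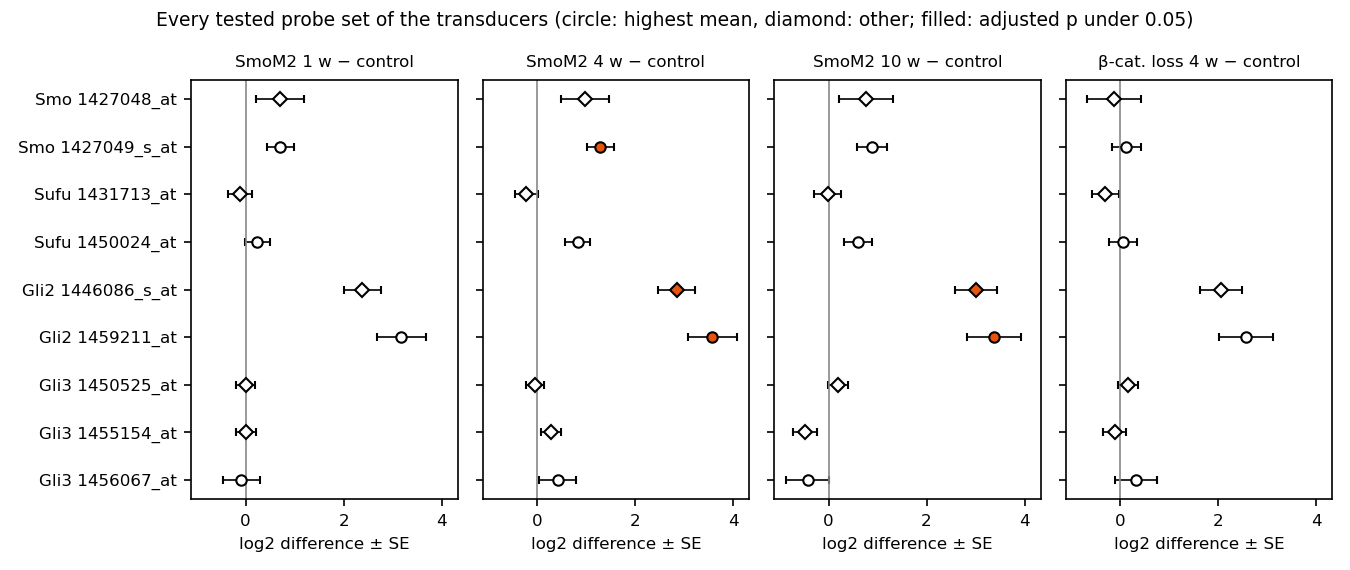
Log2 difference ± SE (horizontal axes) of the 9 probe sets of the transducers that passed the filter, in 4 comparisons with control IFE, where a circle is the probe set of highest mean, a diamond another one and a filled symbol an adjusted p under 0.05. Both Gli2 probe sets lie between 2.06 and 3.58 in these panels, whereas Sufu 1431713_at stays below 0 where Sufu 1450024_at lies above it.

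SmoM2 with β-catenin loss was compared at 4 weeks with SmoM2 alone at 4 weeks and with control IFE. Its Smo signal of 9.67 and 10.33 lay below all arrays of SmoM2 alone, at 11.48, 10.98 and 11.01. The difference was -1.15 ± 0.30 (95% interval -1.80 to -0.50; limma adjusted p = 0.0658), short of the threshold. Of all genes, 17.6% lay apart in the lower direction. Sufu also lay apart, with 7.84 and 7.67 under β-catenin loss, against 8.42, 9.01 and 8.13 with SmoM2 alone, a difference of -0.77 ± 0.29 (95% interval -1.40 to -0.14; adjusted p = 0.192). Sufu probe set 1431713_at overlapped between these groups, with a difference of -0.08 ± 0.27 (limma adjusted p = 0.912).

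The Gli2 arrays with β-catenin loss disagreed with each other, at 9.22 and 11.34, against 11.58, 11.28 and 11.00 with SmoM2 alone. The first lay below and the second among the arrays of SmoM2 alone. The difference was -1.0 ± 0.55 (limma adjusted p = 0.392), and it was 0.06 without β-catenin loss replicate 1. Gli3 was 8.41 and 8.88 with β-catenin loss, within the range of SmoM2 alone (difference -0.09 ± 0.42; adjusted p = 0.937). In Gli3 probe set 1455154_at, 8.22 and 8.25 lay just below the lowest array of SmoM2 alone, 8.26. Its difference was -0.39 ± 0.24 (limma adjusted p = 0.456), and that of 1450525_at was 0.20 ± 0.21.

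Set against control IFE, β-catenin loss gave a Gli2 difference of 2.58 ± 0.55 (95% interval 1.38 to 3.77; limma adjusted p = 0.0826), with both arrays above all controls, as for 13% of all genes, but no call. Smo differed by 0.13 ± 0.30 (-0.52 to 0.78; adjusted p = 0.853), Sufu by 0.06 ± 0.29 (-0.57 to 0.69; adjusted p = 0.94) and Gli3 by 0.32 ± 0.42 (-0.60 to 1.24; adjusted p = 0.737). For these 3 genes the groups overlapped. Comparisons that share the control arrays or the 4-week arrays are not independent of each other.

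**Figure D3:**
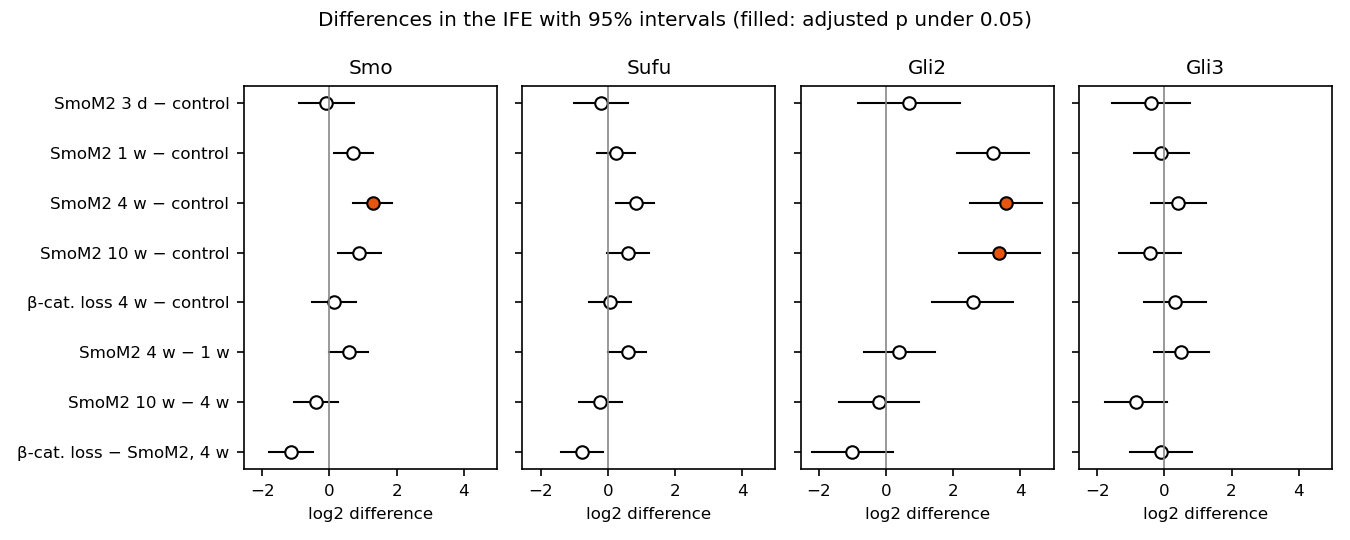
Log2 difference (horizontal axes) with its 95% interval for the 4 transducers in the 8 IFE comparisons, with a filled symbol where the adjusted p was under 0.05. Filled symbols stand at Smo, 1.29, and Gli2, 3.58, for 4 weeks over control and at Gli2, 3.37, for 10 weeks over control, and the Gli3 intervals all include 0.

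Between times with SmoM2 alone no transducer passed the test. For 4 weeks over 1 week the differences were 0.58 ± 0.27 for Smo, 0.59 ± 0.26 for Sufu, 0.40 ± 0.49 for Gli2 and 0.51 ± 0.38 for Gli3 (limma adjusted p = 0.998 for each), and the groups overlapped for all 4 genes. For 10 weeks over 4 weeks they were -0.40 ± 0.30 for Smo (adjusted p = 0.854), -0.22 ± 0.29 for Sufu (0.914) and -0.21 ± 0.55 for Gli2 (0.966). Of these, only the Smo groups lay apart, as for 13.5% of all genes in the lower direction. For Gli2, a step between 3 days and 1 week is visible in the levels, but the 3-day group is a single array and that step was not tested.

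The bulge and outer root sheath gave 1 array per group, which were compared by their differences alone, with no test run and no replicate check. Gli2 signal was 10.83 with SmoM2 in the bulge and 10.97 in the bulge control, a difference of -0.13. Smo was 10.39 with SmoM2 and 10.80 in the control (difference -0.41), Sufu 8.0 and 7.79 (0.21), and Gli3 9.35 and 9.09 (0.25). Over the 14286 genes the median absolute difference between these arrays was 0.205, and 6.94% of genes differed by more than 1 log2 unit, which none of the 4 transducers did.

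The bulge control stood above the range of control IFE for 3 of the 4 genes. Of all genes, 24.2% stood above that range. The bulge control exceeded the control IFE mean by 3.26 for Gli2, 0.93 for Smo and 0.77 for Gli3, while Sufu, higher by 0.10, lay within the range. The Gli2 level of the bulge control, 10.97, lay within the range of IFE SmoM2 at 1 week. The SmoM2 bulge array differed from the mean of IFE SmoM2 at 4 weeks by -0.77 for Smo, -0.52 for Sufu and -0.45 for Gli2, each below the range of those arrays, as for 22.1% of all genes, and by 0.61 for Gli3, within their range. The mean log2 signal of 8 bulge markers, Lgr5, Lhx2 and Cd34 among them, was 9.70 in the SmoM2 bulge and 10.39 in the bulge control. In the IFE it was 7.76 to 8.33 with β-catenin loss, 7.80 at 3 days, 7.95 to 8.98 at 1 week, 8.59 to 9.36 at 4 weeks and 8.94 to 9.02 at 10 weeks, against 7.20 to 7.57 in control IFE. From 1 week on with SmoM2 alone it lay above control IFE, as Gli2 and Smo did. At 3 days and with β-catenin loss it and Gli2 lay above the controls, as for 24.6% and 13% of all genes. Smo lay just below the controls at 3 days and on both sides of them with β-catenin loss. The part of the bulge markers in these differences was not tested. The bulge arrays also differed in other marker lists, with a mean log2 signal of 7.21 in the SmoM2 bulge and 6.24 in its control for fibroblasts, 9.98 and 8.86 for suprabasal epidermis, and 6.57 and 5.54 for leukocytes, whose part was not tested either.

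Ordered by mean over the 8 groups, Gli2, Smo and Sufu were each highest in IFE SmoM2 at 4 weeks. Smo and Sufu were lowest at 3 days and Gli2 in control IFE, whereas Gli3 was highest in the SmoM2 bulge and lowest at 10 weeks. For Smo, neighbours in this order that overlapped or contained each other were 10 weeks and 1 week, 1 week and the SmoM2 bulge, and β-catenin loss and control IFE. For Sufu, all neighbours overlapped except 10 weeks and the SmoM2 bulge. For Gli2, the neighbours that did not overlap were 10 weeks and the bulge control, β-catenin loss and 3 days, and 3 days and control IFE. For Gli3 the only neighbours apart were both bulge arrays, each a single value.

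The levels of Gli1 and Ptch1, the target genes used as a readout of the pathway, were set beside the transducers array by array. Gli1 was 5.73, 5.58 and 5.30 in control IFE, 7.28 at 3 days, 9.77, 10.16 and 8.50 at 1 week, 10.55, 10.83 and 9.95 at 4 weeks, and 9.70 and 9.86 at 10 weeks. With β-catenin loss it was 7.22 and 9.56. In each IFE group of more than 1 array, the array of lowest Gli1 was also the one of lowest Gli2 in its main probe set. In Gli2 1446086_s_at this did not hold for control IFE, at 6.08, 6.15 and 6.14. With β-catenin loss and at 1 week the array of lowest Gli1 was the one of lowest Smo and Ptch1 too. At 4 weeks it was the one of lowest Ptch1 but not of lowest Smo. At 10 weeks the other array was the lower one for Smo and Ptch1, and in control IFE the array of lowest Gli1 had the highest Smo, 10.01, and the highest Ptch1, 9.11. In the bulge Gli1 was 9.96 with SmoM2 and 9.89 in the control, both within the range of IFE SmoM2 at 1 week.

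**Figure D4:**
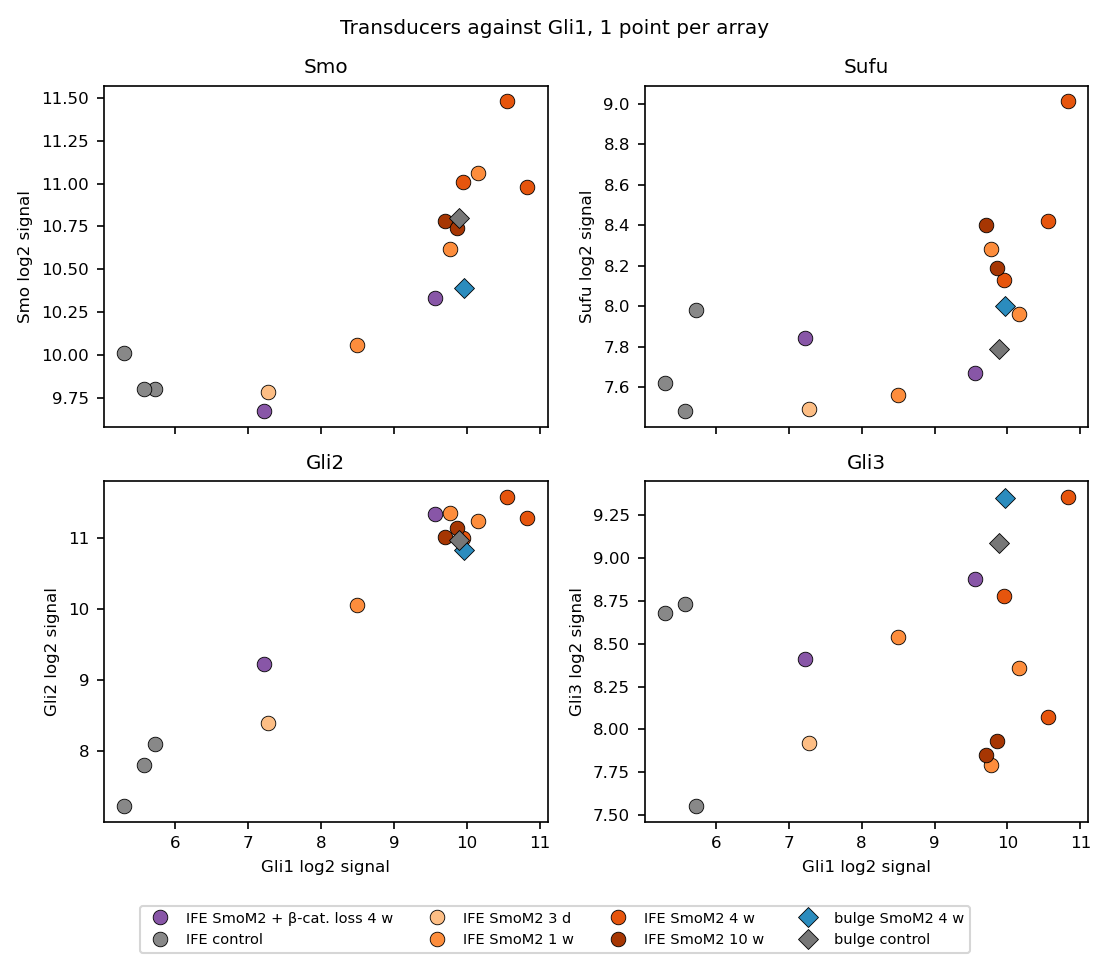
Log2 signal of each transducer (vertical axes) against that of Gli1 (horizontal axes), 1 point per array, coloured by group, with diamonds for the bulge. Gli2 follows Gli1 from the control arrays at the lower left to the SmoM2 arrays at the upper right, Smo and Sufu spread above a Gli1 signal of about 9, and Gli3 shows no such order.

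Over the 16 arrays, the 5 genes whose pattern was most like Gli2 were Ptch1 (r = 0.982), Gli1 (0.978), Scnn1g (0.948), Lap3 (0.938) and Slco4a1 (0.922). Smo was most like Nlgn2 (0.954), Rab34 (0.938), Cgnl1 (0.937), Il17rd (0.936) and Sdc3 (0.933), and its r with Gli1 was 0.85. Sufu was most like Plekhm3 (0.928), 4933431E20Rik (0.923), Slc27a1 (0.901), Nfatc4 (0.893) and Tubb2b (0.892), with 0.641 for Gli1. Gli3 was most like Rgmb (0.859), Phc2 (0.844), Ust (0.8), P2rx7 (0.796) and Btg2 (0.796), with 0.232 for Gli1. Among the transducers, r was 0.82 for Smo and Gli2, 0.694 for Smo and Sufu, 0.607 for Sufu and Gli2, and between 0.013 and 0.157 for Gli3 and the others. These are descriptions over arrays that share a normalization and fall into groups, so a value mostly reflects which groups are high.

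The other pathway genes were taken by role from lists, and 3.24% of all genes tested were called at 4 weeks, 2.44% as higher. Of 7 ligand and ligand release genes tested, none passed the test at 4 weeks, and their median difference was 0.02 against -0.05 over all genes. Of 5 receptor and co-receptor genes, 1 rose, Ptch1, which encodes the Patched receptor, by 4.09 ± 0.47 (limma adjusted p = 0.00587), with a list median of 0.60.

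Of 16 genes of the primary cilium and Smoothened trafficking, 2 rose at 4 weeks, the list median was 0.44 and 15 lay above 0. They were Tulp3, which brings receptors into the cilium, at 2.02 ± 0.41 (limma adjusted p = 0.0268), and Kif7, a ciliary kinesin that acts on Gli proteins, at 1.53 ± 0.33 (adjusted p = 0.0311). Of 19 Gli kinases, ubiquitin ligases and scaffolds, 1 rose, the kinase gene Stk36, by 0.74 ± 0.16 (adjusted p = 0.0309), with a list median of 0.11. Stk36 signal was low, with means of 5.13 at 4 weeks and 4.40 in control IFE. The 40th percentile of the arrays lay between 4.88 and 5.01. Without control replicate 2 the comparison held 13 called genes, against 463. Whether Tulp3, Kif7 and Stk36 were among these 13 is not given here.

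Of 11 target genes tested, 2 rose and 2 fell at 4 weeks, with a list median of 0.64. Gli1 rose by 4.91 ± 0.54 (limma adjusted p = 0.00587), as did Ptch1, which is in this list too. The D cyclin gene Ccnd2 fell by 1.17 ± 0.27 (adjusted p = 0.0408) and Igfbp3, which encodes a binding protein of insulin-like growth factors, fell by 2.64 ± 0.60 (adjusted p = 0.0366). Without control replicate 2 the comparison held 13 called genes, 0 of them lower, so neither fall was called there. At 10 weeks Ptch1, at 3.61 ± 0.53 (adjusted p = 0.0166), and Gli1, at 4.24 ± 0.60 (adjusted p = 0.016), were the only genes of these lists called, as was Gli2 among the transducers.

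**Figure D5:**
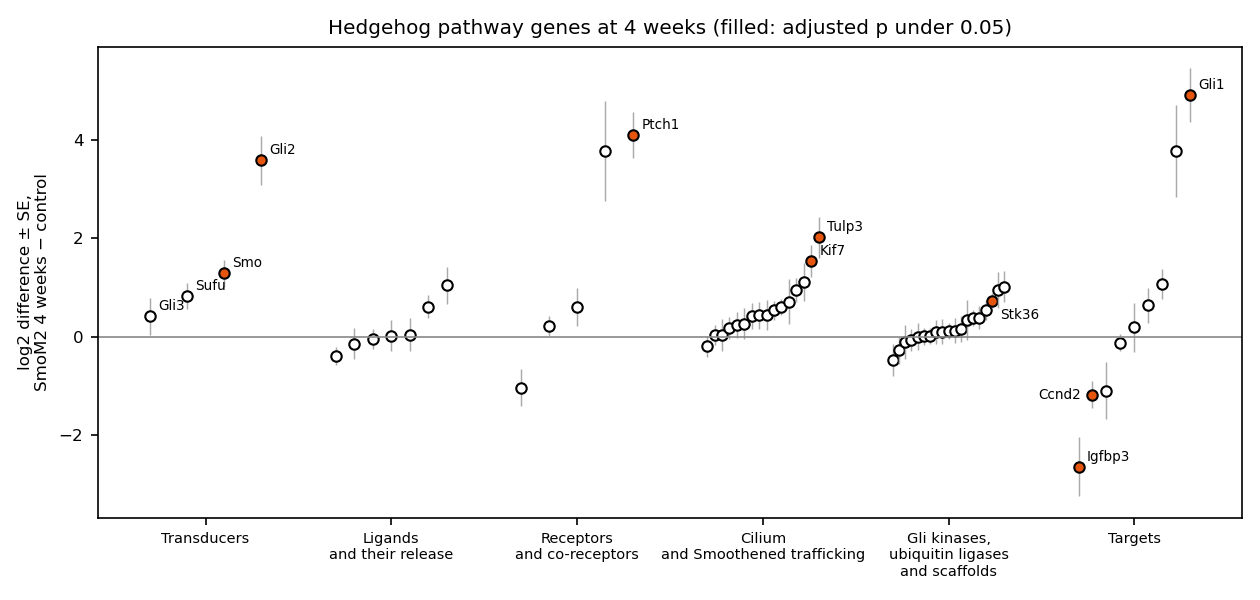
Log2 difference ± SE at 4 weeks over control IFE (vertical axis) for the transducers and the tested genes of the 5 pathway lists (horizontal axis, 1 symbol per gene, a gene in 2 lists drawn in 1 of them), filled and named where the adjusted p was under 0.05, with all 4 transducers named. Gli2, at 3.58, lies below Ptch1, at 4.09, and Gli1, at 4.91, and most genes of the cilium and kinase lists lie between 0 and 1.

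For β-catenin loss over SmoM2 alone at 4 weeks, 2 of the 16 cilium genes fell, where 1.58% of all genes were called as lower, and no gene of the other lists was called. Without β-catenin loss replicate 1 the comparison held 2 called genes, 0 of them lower, so neither of the 2 was called there. Evc fell by 1.82 ± 0.42 (limma adjusted p = 0.04997) and Evc2 fell by 1.22 ± 0.28 (adjusted p = 0.0452), and their products form a complex at the base of the cilium that binds Smoothened. The median of the cilium list was -0.33 and that of the target list -1.12, against -0.09 over all genes. Gli1 differed by -2.06 ± 0.60 (adjusted p = 0.0995) and Ptch1 by -1.44 ± 0.53 (adjusted p = 0.18), neither called, as for all 4 transducers. Against control IFE, β-catenin loss left Igfbp3 as the only listed gene called, with a difference of -4.18 ± 0.67 (adjusted p = 0.0346). Of all genes 0.371% were called there, 53 genes, and 1 gene without control replicate 3.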

How the data were processed

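The authors deposited 1 table of log2 signals for 45101 Affymetrix probe sets in 16 arrays of sorted mouse tail epidermis. Its log2 scale was read from the range of the values. Per the labels' protocols RNA was amplified with a 3′ in vitro transcription kit. R 2.14.0 is named in the submitters' processing notes. How background, normalization and summary were done is not given in the sources used here.

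GEO's platform annotation, which can be old, gave 34958 probe sets 1 gene, 932 several and 9211 none, and 34754 matched RefSeq genes by Entrez ID, with 0 renamed. Genes were read from the probe set of highest mean, filtered at the 40th percentile in at least 2 arrays, and fitted with limma 3.58.1 in R 4.3.3 as group means over the 14 IFE arrays with empirical Bayes moderation (11.6 total degrees of freedom) and Benjamini-Hochberg adjustment. The fit was run on simulated data with independent noise between arrays and added changes in the 4-week group only. That run held no pairing of arrays, so it does not show how well the fit suits these data. The spread of the other groups was assumed for the lone 3-day array. The number of arrays limits the precision.

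Members of the pathway lists were named where they passed the threshold, up to 3 per list and comparison, and Gli1 and Ptch1 throughout. The most alike genes were the 5 of highest correlation. The transducers and lists were chosen with earlier results of these data known. Promoters came from RefSeq GRCm38.p6, where all 4 genes were found. Some listed pathway genes are not reported here. Replicate numbers pair the control, 1-week and 4-week groups, whose same-numbered arrays deviated together (r of 0.34 to 0.70), and not the 10-week or β-catenin loss groups (r of -0.18 to 0.12). Alternatives changed the scaling, the filter, the probe set rule, the arrays fitted, their weights, the moderation, the block, a covariate for Y-linked signal and each replicate.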

Additional observations from a re-analysis of the deposited data

Results flagged for a closer look

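Smo and Gli2 differed in opposite directions in the bulge and the IFE after 4 weeks of SmoM2. In the bulge, SmoM2 minus control was -0.41 for Smo and -0.13 for Gli2, from 1 array per group. The source label of that control names SmoM2-positive cells. Its Gli1 signal was 9.89, beside 9.96 in the SmoM2 bulge and 5.30 to 5.73 in control IFE. The bulge mice carried K19CREERT2 and the IFE mice K14CREER, so tissue and Cre driver cannot be told apart. The bulge arrays also differed in mean Y-linked signal, at 3.48 with SmoM2 and 6.35 in the control. In the IFE both genes were higher in each of the 3 SmoM2 arrays than in any of the 3 controls, as for 9.17% of all genes. The difference between bulge and IFE was not tested. The Gli2 difference in the bulge is below the median absolute difference of 0.205 between the bulge arrays over all genes.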

How the results depend on the processing

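Gli2 at 4 weeks kept its direction under all 18 alternatives and its call under 17 (adjusted p 0.00218 to 0.0509), and Smo at 4 weeks its direction under 18 and its call under 12 (0.0228 to 0.221). Gli2 at 10 weeks was called under 13 of 17 alternatives (2.2e-04 to 0.313) and Gli2 at 1 week under 1 of 18 (0.0179 to 0.408). Where a call changed, the cause was not tested, except that leaving out an array leaves fewer arrays. Over the runs without 1 array, the number of transducers called was 0 to 1 at 1 week, 0 to 2 at 4 weeks and 0 to 1 at 10 weeks. At 4 weeks 1 was called with the mean of all probe sets of a gene (Smo 0.87, adjusted p 0.221). At 10 weeks 2 were called with only the groups compared and 2 with array weights, Smo being added at 0.0362 and 0.011. For β-catenin loss over control 1 was called with array weights (Gli2, 0.0499). With Y-linked signal as a covariate, the limma adjusted p at 4 weeks was 0.0495 for Smo and 0.0173 for Gli2. At 10 weeks it was 0.049 for Gli2.

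With the replicate number as a block, 1 transducer was called for β-catenin loss over SmoM2 alone (Smo -1.24, adjusted p 0.0331), and 1 with the experiment number as the block (Smo -1.22, 0.0377), although neither number pairs these groups. The block also turned Gli3 to 0.08 at 3 days, Gli3 to 0.03 for β-catenin loss over SmoM2 alone (0.04 by experiment) and Sufu to -0.08 for β-catenin loss over control (-0.07 by experiment), none called, and it changed no other call on a transducer. Called genes at 4 weeks ranged from 13 without control replicate 2 to 873 with the block, against 463, and at 10 weeks from 0 to 1545, against 100. For β-catenin loss over SmoM2 alone they ranged from 2 without β-catenin loss replicate 1 to 1347 with the block, against 318, with 17 where only the groups compared were fitted. For β-catenin loss over control they ranged from 1 without control replicate 3 to 169 with the block, against 53. The experiment block could not be run for 3 days, which has no such number.

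The mean of all probe sets turned Sufu to 0 at 1 week, to -0.10 for β-catenin loss over control, to 0.03 for 10 weeks over 4 weeks and to -0.11 for the bulge control over control IFE, where Smo moved to 0.63 from 0.93. Leaving out 1 array reversed only uncalled values. Over these runs Gli3 at 1 week ranged from -0.47 to 0.13 (0.11 and 0.09 without control replicates 2 and 3), Gli2 for 4 weeks over 1 week from -0.01 to 0.64, and Sufu for 10 weeks over 4 weeks from -0.42 to 0.02. For β-catenin loss over control Smo ranged from -0.20 to 0.46, Sufu from -0.05 to 0.20 and Gli3 from -0.06 to 0.56. For β-catenin loss over SmoM2 alone Gli2 ranged from -2.06 to 0.06 and Gli3 from -0.43 to 0.22.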
